A study of Mus musculus with 8 samples.

Results

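The genes described here were 7 members of the cholesterol synthesis programme controlled by SREBP2, chosen by name from the gene table: Srebf2, Insig1, Hmgcs1, Fdps, Fdft1, Sqle and Lss. All 7 of 7 had a row among the 16486 genes of the table. The values are log2 expression from bulk RNA-Seq of blood monocytes (MCs) of mice, which had been separated by a cell sorter into CD11b+Ly6G-Ly6Chigh and CD11b+Ly6G-Ly6Clow cells. Control (CT) mice were wild type C57/BL6 mice, with 2 Ly6Chigh and 2 Ly6Clow libraries. In T1DM mice, C57/BL6 animals had received streptozotocin (STZ), which destroys pancreatic beta cells, at 50 mg/kg per day on 5 days from 8 weeks of age, and each subset had 1 library analysed here. T2DM mice were db/db mice, which carry a homozygous mutation of the leptin receptor, again with 1 library per subset analysed here. All mice were males on normal chow and were bled at 20 to 22 weeks of age. Each library was made from a pool of 5 mice, so the CT pairs may be technical duplicates, and p-values measure only the spread between these libraries. The sequencer was a NextSeq 500 for CT and a HiSeq 4000 for T1DM and T2DM, and its part in any difference between CT and diabetic mice cannot be told apart from that of diabetes.

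SREBP2, encoded by Srebf2, is a transcription factor held in the endoplasmic reticulum membrane by SCAP and the INSIG proteins while sterols are plentiful. When sterols fall, SCAP carries SREBP2 to the Golgi, where it is cut, and the released part enters the nucleus and binds sterol regulatory elements in the promoters of cholesterol synthesis genes, of Insig1 and of Srebf2 itself. The enzymes act in sequence, from the mevalonate branch (Hmgcs1, Fdps) to squalene (Fdft1) and then to the sterol ring (Sqle, Lss). In macrophages the same programme is known to be coupled to inflammatory and interferon signals.

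Promoter windows of the regulator Srebf2 and of the enzyme Hmgcs1 are shown because both hold the core letters of a sterol regulatory element. The windows run from 250 bases before to 50 bases after the gene start, in RefSeq on GRCm38.p6, at chr15:82147019-82147318 for Srebf2 and chr13:119690101-119690400 for Hmgcs1, both on the plus strand. Capitals mark TCACCCCA, the core of a sterol regulatory element, and ATTGG, the reverse complement of the CCAAT box to which NF-Y binds. These letters were chosen after the windows had been read.
Srebf2: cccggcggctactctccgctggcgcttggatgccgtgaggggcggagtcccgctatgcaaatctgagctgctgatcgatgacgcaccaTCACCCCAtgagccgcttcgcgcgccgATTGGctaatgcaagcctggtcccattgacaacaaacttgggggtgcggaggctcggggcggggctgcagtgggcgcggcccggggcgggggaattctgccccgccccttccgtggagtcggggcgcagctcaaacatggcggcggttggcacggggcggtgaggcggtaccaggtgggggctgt
Hmgcs1: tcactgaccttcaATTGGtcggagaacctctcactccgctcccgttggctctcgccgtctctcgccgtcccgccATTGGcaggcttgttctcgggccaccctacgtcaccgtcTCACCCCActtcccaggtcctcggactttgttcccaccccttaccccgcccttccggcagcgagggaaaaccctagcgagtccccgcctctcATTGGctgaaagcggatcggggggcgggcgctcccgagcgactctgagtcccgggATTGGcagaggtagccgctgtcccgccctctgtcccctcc
Windows were found for 4 of 7 members (Srebf2, Insig1, Hmgcs1 and Lss), and all 4 held ATTGG. TCACCCCA stood at -162 to -155 from the start in Srebf2 and at -137 to -130 in Hmgcs1. On either strand, TCACCCCA was present in 1.56% and CCAAT in 37.4% of 32851 windows of the same length. A match is a description of letters and was not tested as a binding site.

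The 7 genes did not share a single pattern between subsets. In CT mice, Insig1 and the enzymes Hmgcs1, Fdps, Fdft1 and Sqle were higher in Ly6Chigh than in Ly6Clow MCs, whereas Srebf2 and Lss were lower. In the T2DM Ly6Chigh library, 6 of 7 members were below both CT Ly6Chigh libraries (35.5% of all genes), at 0.88 to 1.89 below the CT mean on the log2 scale, and Lss was not. In the T1DM Ly6Clow library, 6 of 7 members lay above both CT Ly6Clow libraries (35.1% of all genes) and again Lss was the exception. No member met the criteria for a differentially expressed gene (DEG) in any of the comparisons tested.

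**Figure D1:**
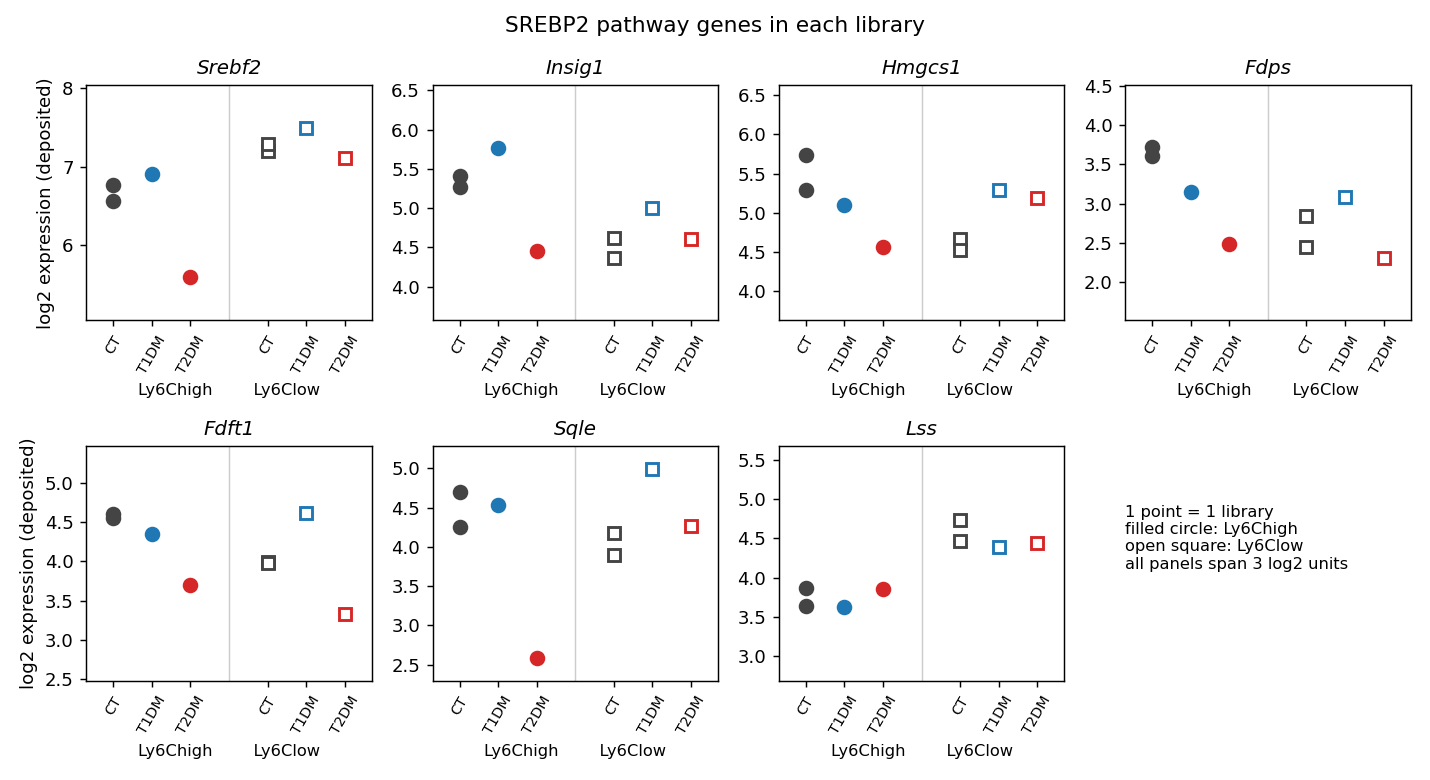
Deposited log2 expression of the 7 genes in the 8 libraries (y axis, log2 units, each panel spanning the same range), by mouse group (x axis) and subset (filled circles Ly6Chigh, open squares Ly6Clow). T2DM Ly6Chigh is the lowest of all libraries for Srebf2 (5.59) and Sqle (2.59), and the Lss values of Ly6Chigh and Ly6Clow libraries do not overlap.

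Among the regulators, Srebf2 (chr15:82147181-82205379 in GRCm38, plus strand) was 6.77 and 6.56 in the CT Ly6Chigh libraries and 7.21 and 7.29 in the CT Ly6Clow libraries. In T1DM mice it was 6.91 in Ly6Chigh and 7.50 in Ly6Clow MCs, and in T2DM mice 5.59 and 7.12. All 4 Ly6Chigh libraries were below all 4 Ly6Clow libraries, and T2DM Ly6Chigh was far below the other Ly6Chigh libraries. Insig1 (chr5:28071363-28078662, plus strand) encodes the sterol-regulated anchor that retains SCAP and SREBP2 in the endoplasmic reticulum, and is itself a SREBP target. It was 5.26 and 5.41 in CT Ly6Chigh, 4.37 and 4.62 in CT Ly6Clow, 5.77 and 5.00 in T1DM Ly6Chigh and Ly6Clow, and 4.45 and 4.60 in T2DM Ly6Chigh and Ly6Clow MCs. The Ly6Chigh values of CT and T1DM mice were above every Ly6Clow value, but T2DM Ly6Chigh lay among the Ly6Clow libraries.

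In the mevalonate branch, Hmgcs1 (chr13:119690379-119708260, plus strand) makes HMG-CoA from acetyl units. It was 5.73 and 5.29 in CT Ly6Chigh and 4.67 and 4.53 in CT Ly6Clow libraries. The values were 5.10 and 5.29 in T1DM Ly6Chigh and Ly6Clow, and 4.57 and 5.19 in T2DM Ly6Chigh and Ly6Clow MCs. The order of the subsets was thus opposite in CT and in both diabetic groups. Fdps (chr3:89093588-89101959, minus strand) makes farnesyl diphosphate, where the sterol branch separates from protein prenylation. It was 3.60 and 3.72 in CT Ly6Chigh, 2.45 and 2.84 in CT Ly6Clow, 3.15 and 3.08 in T1DM Ly6Chigh and Ly6Clow, and 2.49 and 2.30 in T2DM Ly6Chigh and Ly6Clow MCs. The CT Ly6Chigh pair stood above all other libraries.

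In the sterol branch, Fdft1 (chr14:63145150-63179578, minus strand) joins farnesyl units into squalene. It was 4.56 and 4.61 in CT Ly6Chigh, 3.99 and 3.98 in CT Ly6Clow, 4.36 and 4.62 in T1DM Ly6Chigh and Ly6Clow, and 3.69 and 3.33 in T2DM Ly6Chigh and Ly6Clow MCs. Both T2DM libraries were the lowest of their subset. Sqle (chr15:59315077-59331192, plus strand), the squalene epoxidase and a rate-limiting step of the sterol branch, was 4.25 and 4.71 in CT Ly6Chigh and 4.17 and 3.90 in CT Ly6Clow. The values were 4.54 and 4.99 in T1DM Ly6Chigh and Ly6Clow, and 2.59 and 4.27 in T2DM Ly6Chigh and Ly6Clow MCs. T2DM Ly6Chigh stood apart from the other 7 libraries, which lay between 3.90 and 4.99. Lss (chr10:76531588-76557138, plus strand) closes the epoxide to lanosterol. It was 3.87 and 3.64 in CT Ly6Chigh, 4.46 and 4.73 in CT Ly6Clow, 3.63 and 4.39 in T1DM Ly6Chigh and Ly6Clow, and 3.85 and 4.44 in T2DM Ly6Chigh and Ly6Clow MCs. It was the one enzyme of the 7 genes with all Ly6Chigh libraries below all Ly6Clow libraries, and its values in diabetic mice stayed near those of CT mice.

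The comparison of Ly6Chigh with Ly6Clow MCs in CT mice asks how the subsets differ without diabetes. By limma with Benjamini-Hochberg adjustment over all genes, Fdps was higher in Ly6Chigh MCs by a log2FC of 1.02 (SE 0.23, adjusted p = 0.0598, 2 against 2 libraries). Hmgcs1 had a log2FC of 0.91 (SE 0.20, limma adjusted p = 0.0576), Insig1 of 0.84 (SE 0.15, adjusted p = 0.0391) and Fdft1 of 0.60 (SE 0.12, adjusted p = 0.0519). Srebf2, at -0.58 (SE 0.10, limma adjusted p = 0.0370), and Lss, at -0.84 (SE 0.18, adjusted p = 0.0575), had the opposite sign. For Sqle the log2FC of 0.45 (SE 0.23, limma adjusted p = 0.253) was close to the gap between its CT Ly6Chigh replicates. None of the 7 members met the DEG criteria of an adjusted p under 0.01 and an absolute log2FC above 1, beside 3.52% of all genes, and 6 of 7 had an unadjusted p under 0.05, beside 37.7% of all genes. The median log2FC was 0.60 over the members and -0.09 over all genes. The 581 DEG of this comparison were 0 when any 1 of the 4 libraries was left out, which leaves 1 residual degree of freedom. The members with an unadjusted p under 0.05 were then 3 of 7 without CT Ly6Clow replicate 2 (28.2% of all genes), 4 of 7 without CT Ly6Clow replicate 1 (28.4%) or CT Ly6Chigh replicate 2 (31.8%), and 5 of 7 without CT Ly6Chigh replicate 1 (31.7%).

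Over all 8 libraries, with mouse group as a term, Srebf2 was lower in Ly6Chigh MCs by limma (log2FC -0.82, SE 0.16, adjusted p = 0.00506) and so was Lss (log2FC -0.76, SE 0.16, adjusted p = 0.00648). Both passed the adjusted p threshold but not the limit on log2FC, so 0 of 7 members were called, beside 12.1% of all genes (2001 DEG). An unadjusted p under 0.05 was held by 3 of 7 members and 43.2% of all genes, so the members were near the background. Without the T2DM libraries the log2FC of Srebf2 was -0.59 (limma adjusted p = 0.00389). After quantile normalization it was -1.03 (limma adjusted p = 0.00122) and Srebf2 was called, as were 11.1% of all genes. Insig1 had a log2FC of 0.57 (SE 0.19, limma adjusted p = 0.0481), Fdps of 0.57 (SE 0.26, adjusted p = 0.122), Fdft1 of 0.32 (SE 0.19, adjusted p = 0.220) and Hmgcs1 of 0.25 (SE 0.27, adjusted p = 0.515). That of Hmgcs1 ran from 0.03 without CT Ly6Chigh replicate 1 to 0.54 without the T2DM libraries. Sqle was at -0.31 (SE 0.34, limma adjusted p = 0.526) and turned to 0.15 without the T2DM libraries. Srebf2 and Lss, 2 of 7 members, had all 4 Ly6Chigh libraries below all 4 Ly6Clow libraries, a pattern held by 16.3% of all genes, and no member had the reverse, held by 16.4%.

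**Figure D2:**
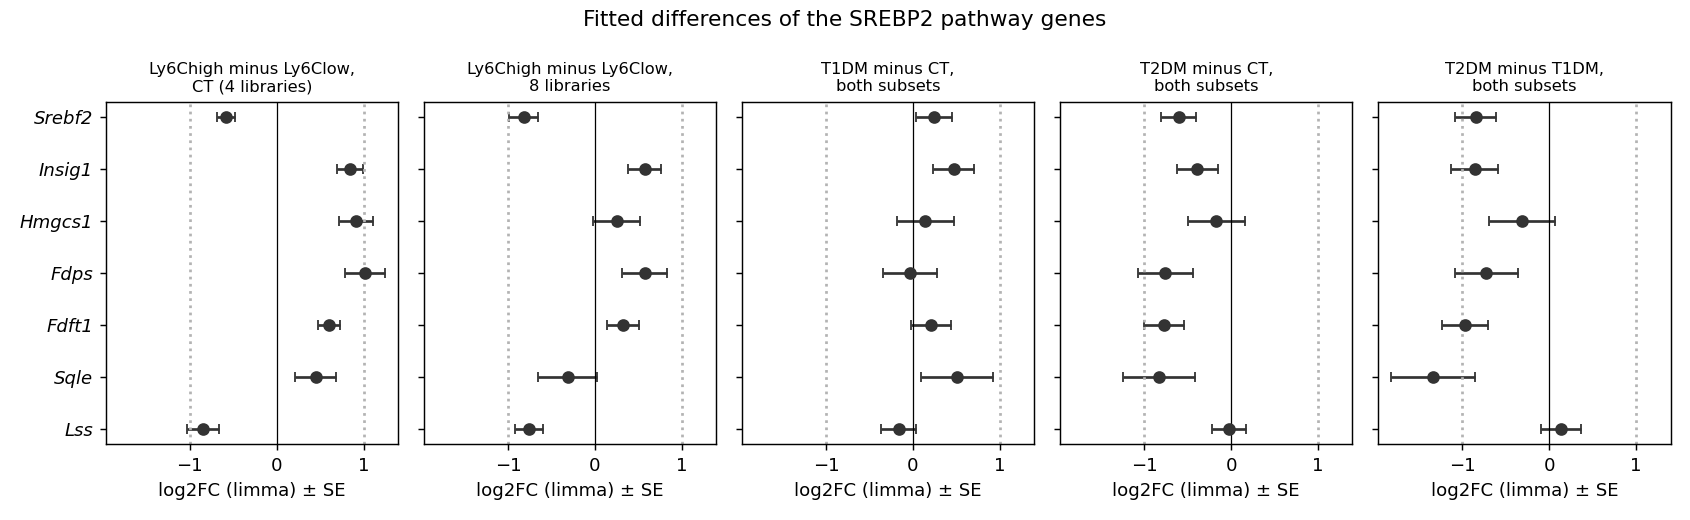
Fitted limma log2FC of each gene (x axis, log2 units) with its SE as a bar, in 5 comparisons, with dotted lines at an absolute log2FC of 1. Srebf2 and Lss sit left of 0 in both comparisons of the subsets, and all 7 genes sit left of 0 in T2DM minus CT.

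Comparison of diabetic with CT MCs over both subsets asks what each model adds to the subset pattern. For T1DM against CT, the log2FC ran from -0.17 for Lss to 0.51 for Sqle (SE 0.42), and every member had a limma adjusted p of 0.9997. No member had an unadjusted p under 0.05, and 0 genes of the table were DEG (0%), with 551 at an unadjusted p under 0.05 (3.34%). Without the T2DM libraries 2 of 7 members had an unadjusted p under 0.05, beside 4.65% of all genes, and the lowest adjusted p of a member was 0.851.

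For T2DM against CT, all 7 members had a negative log2FC, with a median of -0.60 against 0.01 over all genes. Sqle was at -0.83 (SE 0.42, limma adjusted p = 0.656), Fdft1 at -0.77 (SE 0.23, adjusted p = 0.249), Fdps at -0.76 (SE 0.31, adjusted p = 0.517) and Srebf2 at -0.60 (SE 0.20, adjusted p = 0.334). Insig1 was at -0.39 (SE 0.23, limma adjusted p = 0.757), Hmgcs1 at -0.17 (SE 0.33, adjusted p = 0.968) and Lss at -0.03 (SE 0.20, adjusted p = 0.994). No member was called, beside 0.297% of all genes. Fdft1, Fdps and Srebf2, 3 of 7, had an unadjusted p under 0.05, beside 8.94% of all genes. The sign of Lss and of Hmgcs1 depended on a single CT library, and without CT Ly6Chigh replicate 1 the log2FC of Hmgcs1 was 0.05.

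T2DM and T1DM libraries came from the same sequencer. In T2DM minus T1DM, Sqle was at a log2FC of -1.33 (SE 0.48, limma adjusted p = 0.253), Fdft1 at -0.97 (SE 0.26, adjusted p = 0.129), Insig1 at -0.86 (SE 0.27, adjusted p = 0.190) and Srebf2 at -0.85 (SE 0.23, adjusted p = 0.133). Fdps was at -0.72 (SE 0.36, limma adjusted p = 0.423), Hmgcs1 at -0.31 (SE 0.38, adjusted p = 0.785) and Lss at 0.14 (SE 0.23, adjusted p = 0.855). Thus 6 of 7 members were negative, 4 of 7 had an unadjusted p under 0.05, beside 14.3% of all genes, and 0 were called, beside 0.588% of all genes. The comparisons of T2DM with CT and with T1DM share the T2DM libraries.

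Within each subset a diabetic group had 1 library, so the following differences have no replicate check and no test. In Ly6Chigh MCs, T2DM minus the CT mean was -1.89 for Sqle, -1.17 for Fdps, -1.07 for Srebf2, -0.94 for Hmgcs1, -0.89 for Fdft1, -0.88 for Insig1 and 0.10 for Lss. Thus 6 of 7 members were below both CT Ly6Chigh libraries, as were 35.5% of all genes, and 3 of 7 were below -1, as were 7.89% of all genes. The latter count was 2 of 7 without CT Ly6Chigh replicate 1 and 4 of 7 without CT Ly6Chigh replicate 2. The median difference was -0.94 over the members and 0.02 over all genes. T2DM Ly6Chigh was the lowest of the 4 Ly6Chigh libraries for 6 of 7 members (28.4% of all genes) and the lowest of all 8 libraries for Srebf2 and Sqle, 2 of 7 (17.7% of all genes). Against the T1DM Ly6Chigh library, on the same sequencer, the differences were -1.95 for Sqle, -1.32 for Insig1 and -1.31 for Srebf2, so that 3 of 7 were below -1, beside 10.8% of all genes. The others were -0.66 for Fdps and for Fdft1, -0.53 for Hmgcs1 and 0.23 for Lss.

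T1DM Ly6Chigh was closer to CT Ly6Chigh, with differences from -0.51 for Fdps and -0.41 for Hmgcs1 to 0.43 for Insig1, and 0 of 7 members above 1 (5.11% of all genes) or below -1 (4.94%). In Ly6Clow MCs, T1DM minus the CT mean was 0.96 for Sqle, 0.69 for Hmgcs1, 0.63 for Fdft1, 0.50 for Insig1, 0.44 for Fdps, 0.25 for Srebf2 and -0.20 for Lss. Here 6 of 7 members were above both CT Ly6Clow libraries (35.1% of all genes) and none was above 1 (4.03% of all genes). T2DM Ly6Clow showed no common direction, with 0.60 for Hmgcs1, 0.24 for Sqle, 0.11 for Insig1, -0.13 for Srebf2, -0.16 for Lss, -0.34 for Fdps and -0.65 for Fdft1. Against T1DM Ly6Clow, Fdft1 was at -1.28, the only member below -1 (7.97% of all genes).

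Between the subsets of one mouse group, T1DM Ly6Chigh minus Ly6Clow was 0.77 for Insig1, 0.07 for Fdps, -0.19 for Hmgcs1, -0.26 for Fdft1, -0.45 for Sqle, -0.59 for Srebf2 and -0.77 for Lss. In T2DM mice it was 0.36 for Fdft1, 0.19 for Fdps, -0.15 for Insig1, -0.59 for Lss, -0.62 for Hmgcs1, -1.52 for Srebf2 and -1.68 for Sqle, so 2 of 7 members were below -1 (17.8% of all genes). The negative differences of Srebf2 and Lss were thus present in each mouse group. Whether the subset difference itself differed between diabetic and CT mice was tested by an interaction term, with T1DM and T2DM as one diabetic group. Hmgcs1 had an interaction of -1.32 (SE 0.34, limma unadjusted p = 0.00543, adjusted p = 0.611) and Sqle of -1.51 (SE 0.83, adjusted p = 0.829). The other 5 members had adjusted p-values from 0.852 to 0.955, and 0 genes of the table passed (0%), with 1084 at an unadjusted p under 0.05. Each diabetic model was also set against CT alone, in fits that assume its lone library per subset to vary like the CT libraries, whose pairs give the 2 residual degrees of freedom. Without the T1DM libraries it was -2.13 for Sqle (limma adjusted p = 0.225), -1.54 for Hmgcs1 (adjusted p = 0.257) and -0.94 for Srebf2 (adjusted p = 0.222). Without the T2DM libraries it was -0.90 for Sqle (limma adjusted p = 0.514), -1.10 for Hmgcs1 (adjusted p = 0.439) and -0.0073 for Srebf2 (adjusted p = 0.993). The members with an unadjusted p under 0.05 were 1 of 7 with all libraries (6.58% of all genes), 4 of 7 without T1DM (13.9%) and 2 of 7 without T2DM (11.1%).

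The other genes of the pathway were counted as lists, beside the 35.5% of all genes below both CT libraries in T2DM Ly6Chigh and the 7.89% below -1. Of the other 7 mevalonate enzymes, 4 were below both CT libraries in T2DM Ly6Chigh and 2 below -1, with a median difference of -0.39. Idi1, which isomerizes isopentenyl diphosphate, was 2.25 in T2DM Ly6Chigh against 4.39 and 3.98 in CT Ly6Chigh, and Pmvk, the phosphomevalonate kinase, was 1.15 against 3.25 and 2.87. Mvd, the mevalonate diphosphate decarboxylase, differed from Idi1 and Pmvk in this respect, at 4.15 against 4.33 and 4.40. Mvd was the single DEG of that list between the subsets over all 8 libraries (log2FC 1.65, SE 0.18, limma adjusted p = 0.000193), beside 12.1% of all genes.

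Of the other 9 sterol enzymes, 5 were below both CT libraries in T2DM Ly6Chigh and 3 below -1, with a median of -0.23. Cyp51, the lanosterol demethylase, was 3.85 in T2DM Ly6Chigh against 4.68 and 5.46 in CT Ly6Chigh, whereas Ebp, the sterol isomerase, was 4.09 against 4.09 and 3.88. The list thus held both low and level genes in that library.

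All 4 of 4 other SREBP2 targets were below both CT Ly6Chigh libraries in T2DM Ly6Chigh and 3 were below -1, with a median of -1.14. Among them Stard4, a carrier of sterols between membranes, was 3.39 against 4.74 and 4.47. The 4 SREBP processing genes had a median of 0.04, with 1 above and 1 below both CT libraries, and Scap, the escort of SREBP2, was 5.54 against 4.96 and 5.03. None of these other pathway genes was a DEG in T2DM against CT or in T2DM against T1DM.

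**Figure D3:**
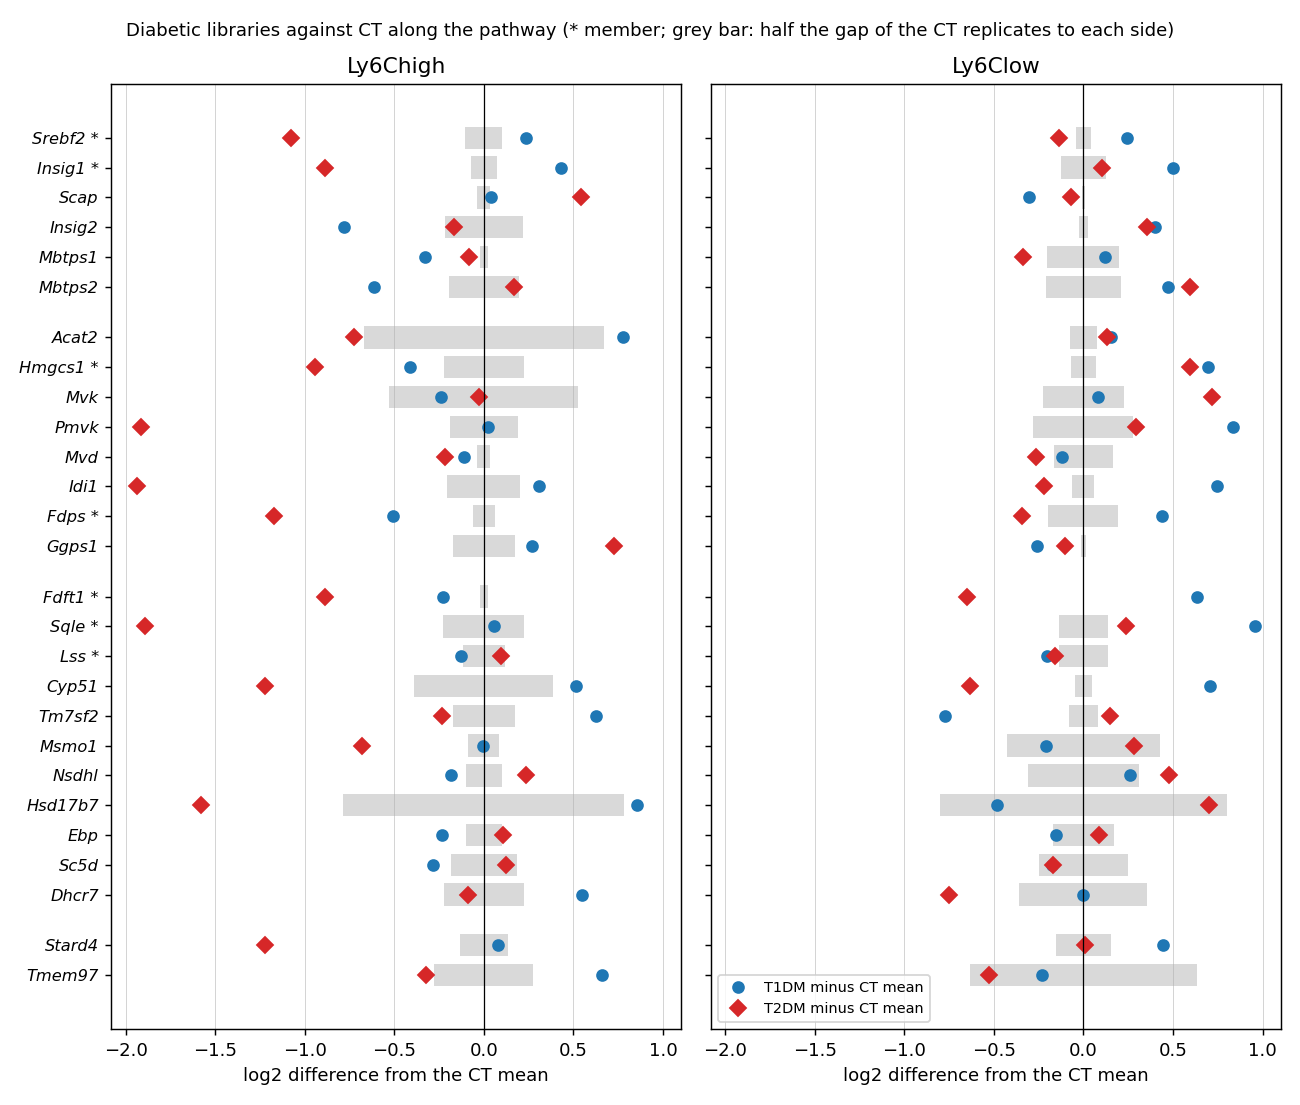
Log2 difference of each diabetic library from the CT mean of its subset (x axis, log2 units) for genes of the pathway in order of their roles, with the CT replicates' distance from their mean as grey bars. In Ly6Chigh, the T2DM points of Idi1 (-1.93), Pmvk (-1.91) and Sqle (-1.89) lie farthest to the left, and those of Lss and Ebp lie near 0.

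In T2DM Ly6Chigh, where most members were low, the marker lists of blood cell types did not share a direction. Levels below are sums of 2 to the power of the log2 value over a list, in the order CT Ly6Chigh 1 and 2, CT Ly6Clow 1 and 2, T1DM Ly6Chigh and Ly6Clow, T2DM Ly6Chigh and Ly6Clow. The gene called the highest had the highest log2 value of its list in each of the 8 libraries unless stated otherwise, on a scale for which no adjustment for gene length is given. The 7 members themselves summed to 270.3 and 252, 255 and 269, 274 and 337, and 133 and 256, with Srebf2 the highest. All 8 of 8 NK cell markers were below both CT libraries in T2DM Ly6Chigh (35.5% of all genes), and their sums were 79.9 and 78.4, 618 and 607, 107 and 818, and 25.7 and 155, with Gzma the highest. The same held for 10 of 10 B cell markers, with sums of 488 and 469, 5718 and 5789.7, 680.0 and 6642, and 319 and 6919 and Ighm the highest. Both lists were higher in each Ly6Clow library than in the Ly6Chigh library of the same mouse group, although the gate was set on MCs.

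Of 6 platelet markers, 5 were below both CT libraries in T2DM Ly6Chigh and 6 of 6 were above the CT libraries in T1DM Ly6Chigh (36.3% of all genes) and in T1DM Ly6Clow (35.1%), with sums of 462 and 426, 347 and 344, 743 and 808, and 194 and 235 and Ppbp the highest. Of 6 dendritic cell markers analysed, 5 were below both CT libraries in T2DM Ly6Chigh, with sums of 94.5 and 122, 120.1 and 128, 125 and 214, and 68.9 and 223. Cd209a was the highest of them in 5 libraries and Flt3 in the other 3, T2DM Ly6Chigh among them. Of 10 T cell markers, 6 were below both CT libraries in T2DM Ly6Chigh, with sums of 42.4 and 53.2, 228 and 218, 33.2 and 260.2, and 29.8 and 225 and Cd2 the highest. Cd2 was 3.19 and 3.95 in CT Ly6Chigh and 7.33 and 7.25 in CT Ly6Clow. The T cell receptor genes lacked this gap, with Cd3d at 2.49 and 1.49 against 2.19 and 2.19, and Cd3e at 2.70 and 2.17 against 2.44 and 1.45. Between CT subsets, 9 of 10 T cell markers had a negative log2FC and 1 was a DEG (3.52% of all genes). Of 6 neutrophil markers analysed, 4 were above both CT libraries in T2DM Ly6Chigh (38.4% of all genes) and 2 were below both (35.5%). The 6 markers summed to 476 and 470.4, 150.4 and 138, 445 and 157, and 685 and 266. Csf3r was the highest, at 9.36 in T2DM Ly6Chigh against 8.84 and 8.83 in CT Ly6Chigh, and the sums mostly follow it. The paper reports Csf3r as higher in Ly6Chigh than in Ly6Clow MCs of all mice. The lower markers differed in direction, with Retnlg at -1.55 in T2DM Ly6Chigh against 1.98 and 1.46, and Ngp at 3.07 against 1.53 and 1.72. Of 8 cycling cell markers, 5 were below both CT libraries in T2DM Ly6Chigh, with sums of 113 and 90.3, 151 and 142, 87.8 and 197, and 108 and 184 and Mki67 the highest.

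The classical MC markers followed the sort and the nonclassical ones did so in part. Between CT subsets, 7 of 7 classical markers had a positive log2FC and 5 were DEG, whereas 5 of 8 nonclassical markers had a negative log2FC and 1 was a DEG (3.52% of all genes). Cx3cr1, at 0.83 (SE 0.041, limma adjusted p = 0.00541), Itgal, at 0.25 (SE 0.032, adjusted p = 0.0211), and Nr4a1, at 0.18 (SE 0.094, adjusted p = 0.253), had the opposite sign. Classical MC markers were above both CT libraries in T2DM Ly6Chigh for 6 of 7 genes (38.4% of all genes), with sums of 11255 and 11139.6, 1147 and 1114, 13550.2 and 1125, and 27989.6 and 1467 and Fn1 the highest, and nonclassical MC markers were below for 8 of 8, with sums of 2688 and 2699, 2898 and 2938, 2033 and 3832, and 1362 and 2837 and Itgal the highest. Ly6c2, which encodes the sort antigen, was 8.58 in T2DM Ly6Chigh against 8.61 and 8.56 in CT Ly6Chigh, and between 2.69 and 4.07 in the Ly6Clow libraries. In T2DM Ly6Chigh the NK cell factor Eomes had a log2 value of -0.60 and the B cell kinase Blk of -0.26. The log2 values do not show whether a gene had 0 reads. The part of these cell types in the member values was not tested, and in bulk libraries fewer cells of a type and less RNA per cell cannot be told apart.

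**Figure D4:**
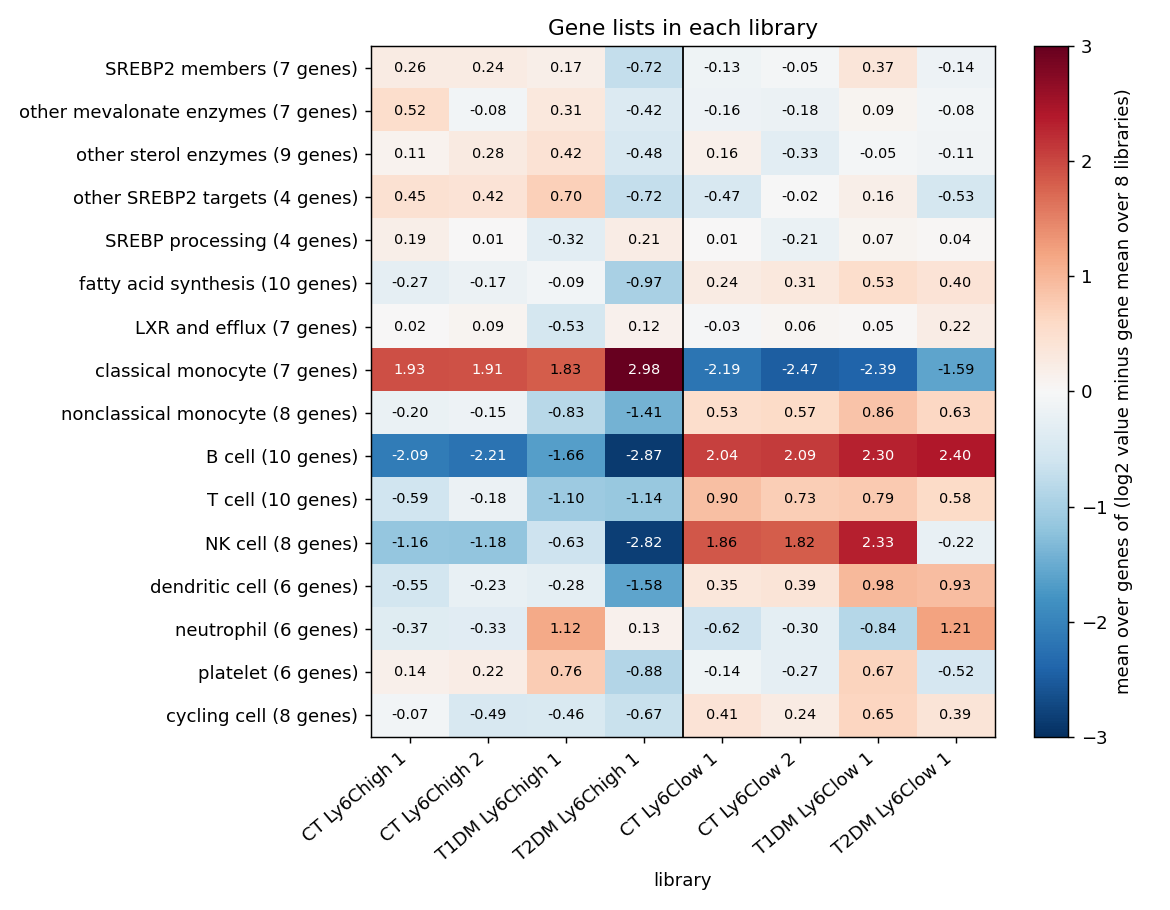
Mean over each list of the log2 value minus the gene's mean over 8 libraries (colour and number, log2 units), with lists as rows and libraries as columns. The SREBP2 members are at -0.72 in T2DM Ly6Chigh, where NK cell (-2.82) and platelet (-0.88) markers are also low and classical MC markers are high (2.98).

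The profile over the 8 libraries summarised the members as the mean of each gene's log2 value minus its own mean. It was 0.26 and 0.24 in CT Ly6Chigh, -0.13 and -0.05 in CT Ly6Clow, 0.17 in T1DM Ly6Chigh, 0.37 in T1DM Ly6Clow, -0.72 in T2DM Ly6Chigh and -0.14 in T2DM Ly6Clow. T2DM Ly6Chigh was lowest and T1DM Ly6Clow highest. Among the members, over 8 libraries, Pearson's r was 0.89 for Fdps with Fdft1, 0.80 for Insig1 with Fdps, 0.75 for Srebf2 with Sqle and -0.70 for Insig1 with Lss. These points share subset, sequencer and library, and r is a description.

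Among 2566 other genes that averaged 5 or more on the log2 scale and had an SD of at least 0.3, Evl (r = 0.99), Mink1 (r = 0.97) and Filip1l (r = 0.95) were most like the members' profile over the 8 libraries. The next were Slc46a3, Phf11b, Hlcs, Arhgap39, Gbp5, Clec2d and Eps15l1, down to r = 0.94. Evl was 5.73 in T2DM Ly6Chigh and between 6.44 and 7.10 in the other libraries, so the low T2DM Ly6Chigh library was common to both profiles. For 6 of 7 members taken singly, the closest were Abcg3 for Srebf2 (r = 0.99), Tmod3 for Lss (r = 0.99), Arid4a for Insig1 (r = 0.97), Arhgap39 for Sqle (r = 0.97), Nfkb2 for Fdps (r = 0.96) and Etv6 for Hmgcs1 (r = 0.87).

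Part of the reads of some members could be assigned to other genes. In GENCODE transcripts, 31.9% of the 31-base words of Fdft1 were shared with another gene (17.6% with Ctsb), 27.9% of those of Fdps (24.6% with Gm43738) and 13.1% of those of Hmgcs1 (10.9% with Gm48342). The values of these 3 genes are uncertain as far as reads from shared words were assigned to another gene. The shares were 3.5% for Insig1, 3.3% for Lss, 1.3% for Srebf2 and 1.0% for Sqle.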

How the data were processed

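RNA of sorted MC subsets was pooled from 5 mice per group, and each sample had 40000000 reads, per the labels. The authors ran Kallisto 0.45 on build mm10, summarized transcripts to gene counts and to TPM, a per-length measure, with tximport 1.12.3 under R 3.6.1, and deposited 1 table of log2 expression values for the 8 libraries. Which of these the log2 values were made from, and whether the sequencers were adjusted for, is not given in the sources used here. Reads per gene are thus unknown, and levels were not compared between genes, except that the members and the marker lists were summed and their highest gene named.

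The log2 values were used as deposited. Fits used limma 3.58.1 in R 4.3.3 (lmFit and eBayes with trend) over all 16486 genes with Benjamini-Hochberg adjustment. DEG were called at an adjusted p under 0.01 and an absolute log2FC above 1. The comparison in CT used 4 libraries, and the others all 8 with mouse group and subset as terms, or subset, diabetes and their interaction. Differences between single libraries were left untested, and fits of 1 diabetic model with CT take their spread mostly or wholly from the CT libraries. The limma step was tested on simulated data. Groups and replicate numbers came from the labels, which do not say whether the CT pairs were separate pools.

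All 7 members were named, with lists of other mevalonate enzymes, other sterol enzymes, other SREBP2 targets, SREBP processing, fatty acid synthesis, LXR and efflux, and cell type markers given as counts. Genes alike in pattern were the 10 with the highest Pearson r with the members' profile, and the closest gene per member. Members and lists were chosen with earlier results of these data known. Some single genes of these lists, and of those alike in pattern, are not reported here, and Me1, Ly6g, Camp and Xcr1 were not analysed here. Sequences are from RefSeq on GRCm38.p6, and gene positions from GENCODE M21 on GRCm38. Alternatives tried were other thresholds, a filter at a mean log2 value of 1, a pseudocount of 1, quantile normalization, median centring, no trend, a replicate block and leaving out libraries.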

Additional observations from a re-analysis of the deposited data

Results flagged for a closer look

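Several members moved in opposite directions in different groups. These differences rest on 1 diabetic library each and were not tested singly. Hmgcs1 was the member with most of them: T1DM minus CT was -0.41 in Ly6Chigh and 0.69 in Ly6Clow, and T2DM minus CT was -0.94 in Ly6Chigh and 0.60 in Ly6Clow. Its Ly6Chigh minus Ly6Clow difference was 0.91 for CT, with -0.19 for T1DM and -0.62 for T2DM. Sqle, the squalene epoxidase, was lower than CT in T2DM Ly6Chigh (-1.89) and higher in T2DM Ly6Clow (0.24), and its subset difference was 0.45 for CT, with -0.45 for T1DM and -1.68 for T2DM. For Fdps, T1DM minus CT was -0.51 in Ly6Chigh and 0.44 in Ly6Clow. For Fdft1 it was -0.23 in Ly6Chigh and 0.63 in Ly6Clow, and the Ly6Chigh minus Ly6Clow difference was 0.60 in CT and -0.26 in T1DM mice. For Insig1 the latter was 0.84 in CT and -0.15 in T2DM mice. With T1DM and T2DM as one diabetic group, the interaction of subset and diabetes had a limma adjusted p of 0.611 for Hmgcs1 and 0.829 for Sqle. No group held enough libraries for a search for outlying samples.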

How the results depend on the processing

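Under the alternatives that change the values, the fit or the libraries, 368 member log2FC values kept their direction and side of the threshold, 9 changed sign and 1 became a call (Srebf2 between subsets after quantile normalization, -1.03), so that 1 of 7 members was called there, beside 11.1% of all genes. In the same comparison, dropping the limit on log2FC gave 2 of 7, beside 20.3% of all genes. The cause of these changes was not tested. Sqle between subsets over 8 libraries was 0.15 without the T2DM libraries. In T1DM minus CT, Hmgcs1 was -0.0052 and Fdps 0.093 with the replicate block. On leaving out 1 CT library, the log2FC in T1DM minus CT ran from -0.019 to 0.36 for Hmgcs1 and from -0.20 to 0.078 for Fdps, and that in T2DM minus CT from -0.33 to 0.049 for Hmgcs1 and from -0.092 to 0.042 for Lss.

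Counts of DEG moved more. Between CT subsets, 581 became 1936 at an adjusted p under 0.05, 1089 with the filter, 990 with median centring, 0 with no trend (5810 genes at an unadjusted p under 0.05), 0 with the replicate block (5513 unadjusted), and 0 to 0 on leaving out 1 library (4651 to 5241 unadjusted). Over 8 libraries there were 3351 with no limit on log2FC. At an adjusted p under 0.05 there were 2 for T1DM minus CT, 105 for T2DM minus CT, 253 for T2DM minus T1DM and 3 for the interaction. With no trend T2DM minus CT had 9 and T2DM minus T1DM 26. With the replicate block they had 13 and 62. Leaving out 1 CT library gave 17 to 21 and 57 to 84, and T2DM minus CT had 30 without T1DM. Every group had a replicate 1 and only the CT subsets had a replicate 2 as well. The correlation of their replicate deviations was 0.0089, so the numbers were not taken as pairs. Genes past 1 in T2DM minus CT Ly6Chigh were 957 of 2283 with a pseudocount of 1. Members past 1 in T2DM minus CT Ly6Chigh were 2 to 4 on leaving out a CT library. Members past 1 in T1DM minus CT Ly6Clow were 1 after quantile normalization, and 0 to 1 on leaving out a CT library. Median centring moved the median log2FC of all genes between CT subsets from -0.09 to 0.04. Reads per gene cannot be read from the log2 values, and each diabetic subset has 1 library.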

Other observations

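Fatty acid synthesis and cholesterol efflux genes were read beside the SREBP2 members. Of 10 fatty acid synthesis genes, 8 were below both CT libraries in T2DM Ly6Chigh (35.5% of all genes), with a median difference of -0.69. Scd1, the stearoyl-CoA desaturase, was 3.73 and 3.75 in CT Ly6Chigh, 4.71 in T1DM Ly6Chigh and 3.05 in T2DM Ly6Chigh, against 8.57 and 8.51 in CT Ly6Clow, 8.29 in T1DM Ly6Clow and 8.62 in T2DM Ly6Clow. The subsets did not overlap, and Scd1 was a DEG over all 8 libraries (log2FC -4.69, SE 0.26, limma adjusted p = 5.15e-06). Fasn, the fatty acid synthase, was the other DEG of that list there, at -1.18 (SE 0.23, limma adjusted p = 0.00394), so 2 of 10 were DEG beside 12.1% of all genes. In T2DM minus CT and in T2DM minus T1DM over both subsets, all 10 genes had a negative log2FC and 0 were DEG, beside 0.297% and 0.588% of all genes.

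Of 7 LXR and efflux genes, 2 were DEG lower in Ly6Chigh MCs and 1 was higher over all 8 libraries, beside 12.1% of all genes in either direction. The cholesterol exporter Abca1 was lower (log2FC -1.71, SE 0.16, limma adjusted p = 8.96e-05) and so was Mylip, a ubiquitin ligase induced by LXR (log2FC -1.30, SE 0.12, adjusted p = 7.5e-05). Soat1, which esterifies cholesterol for storage, was higher (log2FC 1.66, SE 0.10, limma adjusted p = 8.35e-06). Apoe, the lipoprotein component that takes up exported cholesterol, was 10.21 in T2DM Ly6Chigh and 10.04 in T2DM Ly6Clow. In T1DM mice it was 9.29 in Ly6Chigh and 8.71 in Ly6Clow MCs. Both diabetic groups were above the CT libraries of the same subset, at 8.81 and 8.73 in Ly6Chigh and 7.82 and 7.86 in Ly6Clow. Apoe was the one gene of the pathway lists that was a DEG in T2DM minus CT (log2FC 1.82, SE 0.15, limma adjusted p = 0.0013), as were 0.297% of all genes. With sequencer and diabetes confounded in that comparison, their parts cannot be told apart, and in T2DM minus T1DM Apoe was at a log2FC of 1.12 (SE 0.18, limma adjusted p = 0.0173).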
